A study of Homo sapiens with 24 samples.

Results

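The proteasome degrades proteins that carry ubiquitin chains. Its 20S core is a barrel of alpha and beta rings with the proteolytic sites inside, and the 19S cap, built of ATPases and non-ATPase subunits, recognises and unfolds the substrate. Interferon replaces the proteolytic subunits of the core by the immunoproteasome subunits PSMB8, PSMB9 and PSMB10, which favours peptides for antigen presentation, and activators of the PSME family can take the place of the 19S cap. Prostate carcinoma cells, like other dividing cells, express the constitutive proteasome throughout.

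The proteasome genes described here are the 50 protein-coding genes whose RefSeq symbol starts with PSMA, PSMB, PSMC, PSMD, PSME, PSMF or PSMG, out of 20739 genes that were named through RefSeq on both array versions. They comprise 14 subunits of the 20S core, 3 immunoproteasome subunits, the tissue-specific core subunits PSMA8 and PSMB11, 17 subunits of the 19S cap, 4 activators, the inhibitor PSMF1, 7 assembly chaperones, and PSMC3IP and PSME3IP1, which carry the name of a binding partner and are not subunits. They were measured on 24 one-colour arrays in LNCaP, an established androgen-sensitive line from a metastasis of a prostate carcinoma. The cells had been electroporated with 1 of 3 siRNAs. The target of si-A1 was the long non-coding RNA TAPIR-1, that of si-A2 was TAPIR-2, and si-SCRL was the scrambled negative control. RNA was taken after 24 h or 48 h from 4 biological replicates of each. All groups share the cell line, the medium and the electroporation, no untransfected cells were measured here, and each target was represented by 1 siRNA, so that effects of the target and of that siRNA cannot be told apart. The array of si-A2 replicate 2 at 48 h was dim, with a highest intensity of 202700 against at least 541000 on the others of that time, and was left out, which leaves 3 si-A2 samples at 48 h.

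KLK3, which encodes prostate-specific antigen and marks prostate luminal cells, was well above background on every array used. The probes of the leukocyte markers PTPRC and CD3E and of the endothelial marker VWF were also well above background on every array used. The endothelial marker PECAM1 was so on 12 of 12 arrays at 24 h and 8 of 11 at 48 h. Of the fibroblast markers, COL1A1 was so on 3 and 0 arrays, DCN on 2 and 11, and COL1A2 did not pass the background threshold. Of the basal epithelial markers, TP63 was so on 7 and 1 arrays, KRT14 on 10 and 10, and KRT5 did not pass. The part of these probes in the results was not tested. The TAPIR-2 probe had a mean log2 intensity of 4.06 with si-A2 and 5.04 with si-SCRL at 24 h (difference -0.98, exact two-sided permutation test p = 0.0286, the smallest p that 4 against 4 arrays allow). With si-A2 only 2 of 4 arrays measured it well above background, so the size of this difference is not exact, and with si-A1 it differed by -0.40 (exact two-sided permutation test p = 0.0571). At 48 h the same probe differed by 0.04 with si-A2 (p = 0.943 in the exact permutation test) and by 0.18 with si-A1 (p = 0.8 in that test). A second TAPIR-2 probe of the 48 h arrays was well above background on 0 arrays of each group, and TAPIR-1 had no matched probe. Every probe reports a log2 intensity after quantile normalization, which is comparable between arrays but not between genes. A gene was called if its Benjamini-Hochberg adjusted p in the limma fit was under 0.01 and its log2 fold change at least 0.5 in size. Probes without a RefSeq name were counted as genes under their own identifier. Before filtering, 20992 of 41069 such rows at 24 h and 22439 of 47753 at 48 h were genes named through RefSeq. Counts and shares over all genes thus include unnamed rows, while the proteasome genes are all protein-coding. In all, 49 of the 50 genes were above the background threshold at both times, and PSMA8, the testis-specific alpha subunit, was not.

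The promoters of 5 of the 6 genes called in at least 1 comparison are shown so that their sequence can be read beside the values. RefSeq promoters on GRCh38.p14 were listed for 44 of the 50 genes. The 250 bases before the start site of PSMC3IP (chr17:42577832-42578081, minus strand, the upstream one of 2 listed starts), PSME3 (chr17:42833147-42833396, plus strand), PSMC3 (chr11:47426440-47426689, minus strand), PSMA3 (chr14:58244593-58244842, plus strand) and PSMG2 (chr18:12658488-12658737, plus strand, also the upstream one of 2) follow in the direction of transcription, with matches on either strand to CCAAT, TGACNNNGC or CCGGAAG in capitals. These letters are the CCAAT box, the core of the antioxidant response element that NFE2L1 and its relatives bind, and a motif of ETS factors.
PSMC3IP: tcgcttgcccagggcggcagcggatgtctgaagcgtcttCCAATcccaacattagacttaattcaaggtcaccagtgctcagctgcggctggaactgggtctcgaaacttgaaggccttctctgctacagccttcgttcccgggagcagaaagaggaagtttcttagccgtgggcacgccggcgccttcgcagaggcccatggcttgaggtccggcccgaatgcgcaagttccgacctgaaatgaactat
PSME3: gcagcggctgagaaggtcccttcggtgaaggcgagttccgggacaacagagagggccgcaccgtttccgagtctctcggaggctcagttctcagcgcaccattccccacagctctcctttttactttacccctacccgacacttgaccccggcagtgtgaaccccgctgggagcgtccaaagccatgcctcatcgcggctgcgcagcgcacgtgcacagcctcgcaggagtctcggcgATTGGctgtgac
PSMC3: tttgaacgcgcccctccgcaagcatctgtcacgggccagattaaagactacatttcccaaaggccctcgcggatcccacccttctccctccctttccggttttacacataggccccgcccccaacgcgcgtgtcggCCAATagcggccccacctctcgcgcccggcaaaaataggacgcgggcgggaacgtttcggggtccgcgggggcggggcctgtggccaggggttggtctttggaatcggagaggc
PSMA3: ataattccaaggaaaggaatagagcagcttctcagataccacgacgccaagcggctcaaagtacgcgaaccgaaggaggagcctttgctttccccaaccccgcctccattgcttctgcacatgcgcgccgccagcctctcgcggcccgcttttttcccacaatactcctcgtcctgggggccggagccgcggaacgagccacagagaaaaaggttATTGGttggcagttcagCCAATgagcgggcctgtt
PSMG2: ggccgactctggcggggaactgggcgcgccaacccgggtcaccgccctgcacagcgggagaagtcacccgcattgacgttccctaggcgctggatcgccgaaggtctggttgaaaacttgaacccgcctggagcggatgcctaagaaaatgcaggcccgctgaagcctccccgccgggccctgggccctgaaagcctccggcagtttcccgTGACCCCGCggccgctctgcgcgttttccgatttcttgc
A CCAAT box lies in the window of PSMC3IP, PSME3 (on the other strand), PSMC3 and PSMA3 (on both strands), and PSMG2 holds TGACCCCGC. CCAAT was found before 21 of the 44 proteasome genes (47.7%) and 37% of all 27305 genes listed, TGACNNNGC before 13 (29.5%) and 13.2%, and CCGGAAG before 13 (29.5%) and 10.2%. The 27305 genes were not limited to protein-coding ones, as the 44 proteasome genes are, so these shares are of unlike sets. The matches are a description of the letters, and binding was not measured.

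PSMC3IP showed the largest difference of the 49 genes with both siRNAs at 24 h and with si-A1 at 48 h. Its product, also called HOP2, assists the recombinases in homologous recombination and was named after its binding to the ATPase PSMC3. It lies on chr17:42572310-42577831 (GRCh38.p14), 256 kb from PSME3. At 24 h its log2 intensity was 6.78, 7.0, 7.35 and 7.15 on the si-SCRL arrays. It was 5.37, 5.06, 5.40 and 4.88 with si-A1, and 4.75, 5.14, 4.99 and 5.40 with si-A2. Every si-A1 array and every si-A2 array was below every si-SCRL array. The fitted log2 fold change was -1.89 ± 0.18 (SE, n = 4 against 4) for si-A1, which is 3.72-fold lower (limma adjusted p = 0.00031), and -2.0 ± 0.18 for si-A2, which is 4.01-fold lower (limma adjusted p = 0.00018). In bulk RNA, fewer cells that express a gene and less of its RNA per cell cannot be told apart.

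At 48 h the siRNAs differed at PSMC3IP. The si-SCRL arrays read 7.24, 7.15, 6.93 and 7.29, the si-A1 arrays 4.67, 4.75, 4.29 and 4.40, and the si-A2 arrays 6.73, 5.98 and 6.61. The si-A1 values lay far below both other groups, while those of si-A2 lay between si-A1 and si-SCRL. With si-A1 the log2 fold change was -2.63 ± 0.15, which is 6.18-fold lower (limma adjusted p = 5e-05), and with si-A2 it was -0.67 ± 0.17 (limma adjusted p = 0.080), which was not called. The difference of si-A2 from si-A1 was 1.96 ± 0.17 (limma adjusted p = 0.0011). Between the times the effect of si-A2 changed by 1.35 ± 0.25 toward the control, with a limma adjusted p of 0.048 that does not pass 0.01, and that of si-A1 by -0.70 ± 0.24 (limma adjusted p = 0.21). Within the separate slides the si-A1 value was -2.49 and -2.77 at 48 h and -1.67 and -2.11 at 24 h, and the si-A2 value at 24 h was -1.95 and -2.06.

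PSME3 fell with si-A2. It encodes the nuclear activator PA28-gamma, which opens the core without need for ubiquitin, and lies on chr17:42833397-42843760. At 24 h it read 9.08, 9.21, 9.48 and 9.19 with si-SCRL and 9.60, 9.36, 9.49 and 9.12 with si-A1, against 7.72, 7.82, 7.93 and 8.20 with si-A2. The si-A2 arrays were below all others. The log2 fold change was -1.32 ± 0.16, which is 2.50-fold lower (limma adjusted p = 0.0011), and against si-A1 it was -1.48 ± 0.16 (limma adjusted p = 0.0019), a call that was lost in 5 of the 12 fits that left out an array. For si-A1 against si-SCRL it was 0.15, with a 95% interval from -0.19 to 0.50. At 48 h the si-A2 arrays, at 7.59, 7.40 and 7.14, were again below the si-SCRL arrays, at 8.20, 8.57, 8.29 and 8.12. The log2 fold change of -0.88 ± 0.12 had a limma adjusted p of 0.011 and was not called. Within the slides the si-A2 value at 24 h was -1.37 and -1.27.

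**Figure D1:**
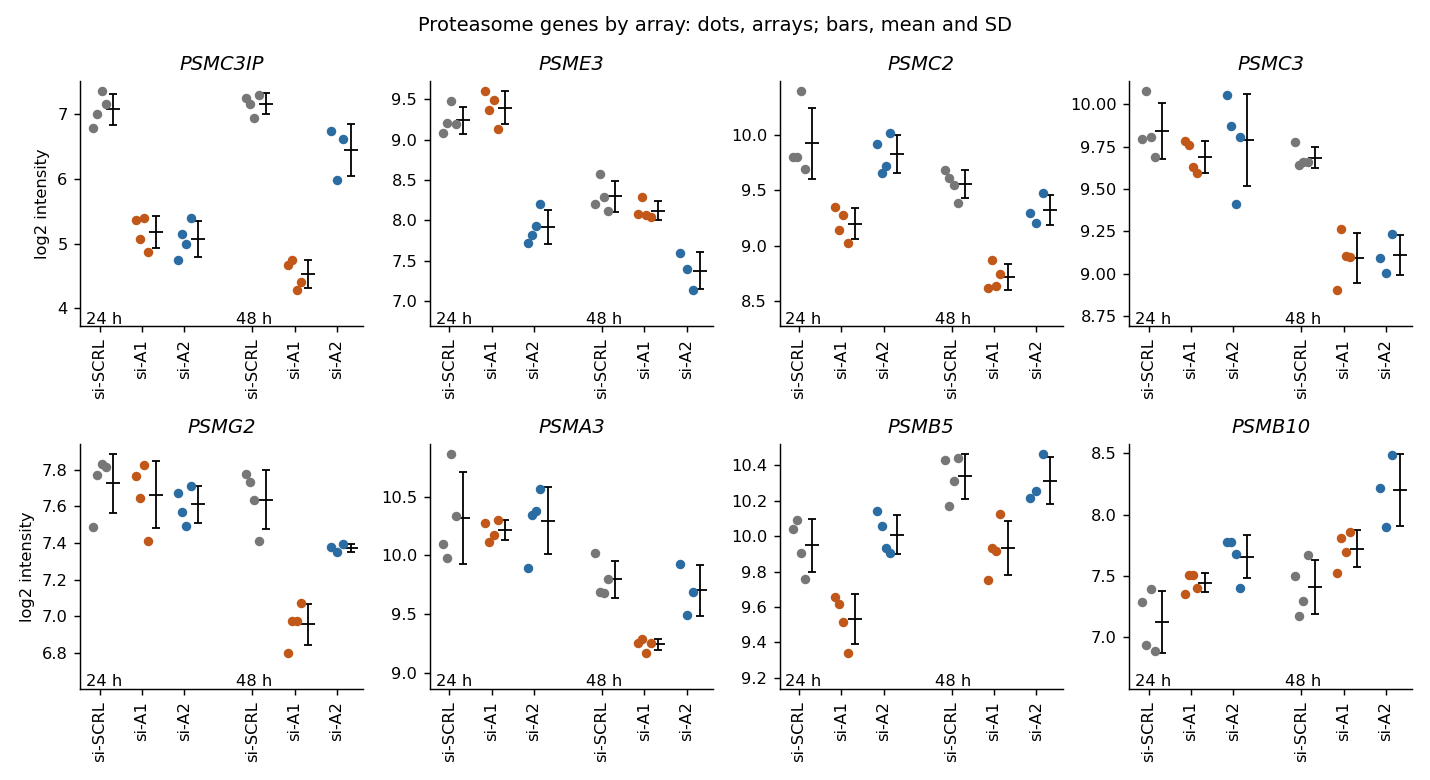
Log2 intensity of 8 proteasome genes on each array, by siRNA and time; each gene has its own vertical axis, dots are arrays and bars are the mean with its SD. PSMC3IP is low with both siRNAs at 24 h and lowest with si-A1 at 48 h, PSME3 is low with si-A2 alone, and PSMC2 and PSMB5 are low with si-A1 at both times.

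At 24 h, 0 of the 31 subunits of the 20S core and the 19S cap were called with either siRNA in the limma fit, and 2 with si-A1 and 1 with si-A2 had an unadjusted p under 0.05. The share of all genes at an unadjusted p was not taken in any comparison, so counts at that threshold have no background here or below. With si-A1, 1 of the 49 genes was called (PSMC3IP), beside 1.03% of all 36639 genes tested (0.958% called lower), and with si-A2 there were 2 (PSMC3IP and PSME3), beside 0.903% (0.827% called lower). Between si-A2 and si-A1, PSME3 was the 1 gene called, beside 0.308% of all genes, and it was not called when only those groups were fitted or with the interquartile range filter. The median log2 fold change over the 49 genes was -0.07 with si-A1 and -0.01 with si-A2, against 0.05 over all genes tested in either comparison. With si-A1, 31 of the 49 were below 0, and with si-A2 25 were, that is 63.3% and 51%, against 43.1% of all genes in each. These counts rest on si-SCRL replicate 3, where the core median stood at 0.39 relative to the si-SCRL mean, against -0.10 to -0.06 on the other si-SCRL arrays. Without it, 21 genes were below 0 with si-A1 and 17 with si-A2, and the core median for si-A1 went from -0.07 to 0.04. The share of all genes below 0 was not taken without this array, so these 2 counts have no background beside them. The median SE at 24 h was 0.16 on the log2 scale for a proteasome gene and 0.2254 over all genes tested.

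PSMC2, the ATPase Rpt1 of the 19S cap, had the largest si-A1 difference among these subunits at 24 h. The si-A1 arrays read 9.35, 9.14, 9.27 and 9.03 and the si-SCRL arrays 9.80, 9.80, 10.39 and 9.69, with no overlap. The log2 fold change was -0.72 ± 0.17 and the limma adjusted p was 0.070. PSMB5, which carries the chymotrypsin-like site of the core, read 9.65, 9.61, 9.52 and 9.34 with si-A1, below all 4 si-SCRL arrays at 10.04, 10.09, 9.90 and 9.75. Its log2 fold change was -0.42 ± 0.11 (limma adjusted p = 0.096), so neither gene was called. With si-A1 at 24 h, 4 of the 49 genes (8.16%) lay below every si-SCRL array, beside 5.1% of all genes. The other proteolytic subunits, PSMB6 for the caspase-like and PSMB7 for the trypsin-like site, had differences of -0.07 and -0.13 with si-A1 and of 0.11 and -0.02 with si-A2.

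At 48 h, PSMC2 and PSMC3 of the cap and PSMA3 of the core were called lower with si-A1, PSMC3 and PSMA3 near the threshold. Of the 49 genes, 5 were called, all of them lower, which is 10.2% beside 5.82% of all 37698 genes called in either direction and 3.66% called lower. These were PSMC3IP, PSMC2, PSMC3, PSMG2 and PSMA3. With only genes well above background on all arrays of a group kept, the count was also 5. There 10.4% of 29231 genes were called in either direction, near the 10.2% of the 49 genes in the main fit. That filter drops PSMB8, so the proteasome share under it is not exactly 10.2%. The share of all genes called lower was not taken under it. In the main fit, 17 of the 49 genes (34.7%) had an adjusted p under 0.05 with no minimum fold change. All were lower, beside 7.14% of all genes lower at that threshold. The median SE in this comparison was 0.109 for a proteasome gene and 0.1585 over all genes tested. Differences of like size thus pass a threshold on p, or separate the groups, more readily for proteasome genes. How much of the contrast in shares comes from this was not tested. The fitted difference was below 0 for 40 of the 49 (81.6%), against 42.9% of all genes, and the median was -0.23 against 0.06 over all genes. Replicate block: with the replicate number, taken as a pairing at 48 h, in place of the slide, PSMC3IP and PSMC2 remained called. The count fell to 2, beside 3.77% of all genes called. Deviations of same-numbered arrays had a median r of 0.23 at 48 h, and those of other numbers on the same slide 0.202. Leaving out 1 array at a time gave 2 to 4 calls, PSMC3IP and PSMC2 being called each time, beside 2.94% to 6.1% of all genes.

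PSMC2 lies on chr7:103347524-103369395. At 48 h it read 8.62, 8.87, 8.64 and 8.74 with si-A1, against 9.68, 9.61, 9.54 and 9.39 with si-SCRL. The groups were apart on every array, as at 24 h, and the log2 fold change was -0.84 ± 0.10, which is 1.79-fold lower (limma adjusted p = 0.0010). Within the slides it was -0.90 and -0.78. The si-A2 arrays, at 9.29, 9.20 and 9.47, overlapped with si-SCRL, and si-A2 exceeded si-A1 by 0.62 ± 0.11 (limma adjusted p = 0.018, not called). A second, dimmer PSMC2 probe gave -0.32 for si-A1, and with the median of both probes PSMC2 was not called.

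PSMC3, the ATPase Rpt5, was the 1 subunit at an adjusted p under 0.05 with both siRNAs at 48 h. It read 8.90, 9.26, 9.11 and 9.10 with si-A1 and 9.09, 9.0 and 9.24 with si-A2, against 9.78, 9.64, 9.66 and 9.66 with si-SCRL. Both the si-A1 and the si-A2 arrays lay below every si-SCRL array and overlapped with each other. The log2 fold change was -0.59 ± 0.10 with si-A1 (limma adjusted p = 0.0059, called) and -0.57 ± 0.11 with si-A2 (limma adjusted p = 0.032, not called), and these share the si-SCRL arrays. The difference between the siRNAs was 0.02, with a 95% interval from -0.23 to 0.27.

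PSMG2 is the assembly chaperone PAC2, which forms a pair with PSMG1 and guides the formation of the alpha ring. With si-A1 it read 6.80, 6.97, 6.97 and 7.07 at 48 h, against 7.77, 7.73, 7.63 and 7.41 with si-SCRL, so the groups did not overlap. The log2 fold change was -0.68 ± 0.10 (limma adjusted p = 0.0034). Its partner PSMG1 had -0.44 (limma adjusted p = 0.031). PSMA3, the last subunit of the alpha ring, read 9.25, 9.29, 9.17 and 9.25 with si-A1 and 10.02, 9.69, 9.68 and 9.80 with si-SCRL, again apart. Its log2 fold change was -0.56 ± 0.10 (limma adjusted p = 0.0089). With si-A2 these arrays read 9.93, 9.49 and 9.69, and the difference from si-SCRL was -0.07 (limma adjusted p = 0.81). PSMC3, PSMG2 and PSMA3 were near the threshold: they were called in 3, 5 and 1 of the 11 fits that left out an array, with log2 fold changes between -0.86 and -0.45 over all alternatives.

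Just short of the fold change threshold with si-A1 at 48 h were PSMD1, the large scaffold of the cap, at -0.47 (limma adjusted p = 0.0093), the core subunit PSMB2 at -0.45 (0.0051) and the alpha subunit PSMA2 at -0.43 (0.0064). PSMD3 had -0.54 (limma adjusted p = 0.026), and here 1 si-SCRL array lay at 8.05 while the others lay between 8.59 and 8.63. PSMB5 again had -0.41 (limma adjusted p = 0.029), its si-A1 arrays at 9.75, 9.93, 9.92 and 10.13 lying below the si-SCRL arrays at 10.43, 10.17, 10.31 and 10.44. Some subunits showed no lower value. PSMA1, PSMB4, PSMB7 and PSMC4 had values between 0.08 and 0.17, and PSMD4, a ubiquitin receptor, had a log2 fold change of 0.00 with a 95% interval from -0.37 to 0.37. PSMC4 and PSMD4 are named here after their values were seen.

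**Figure D2:**
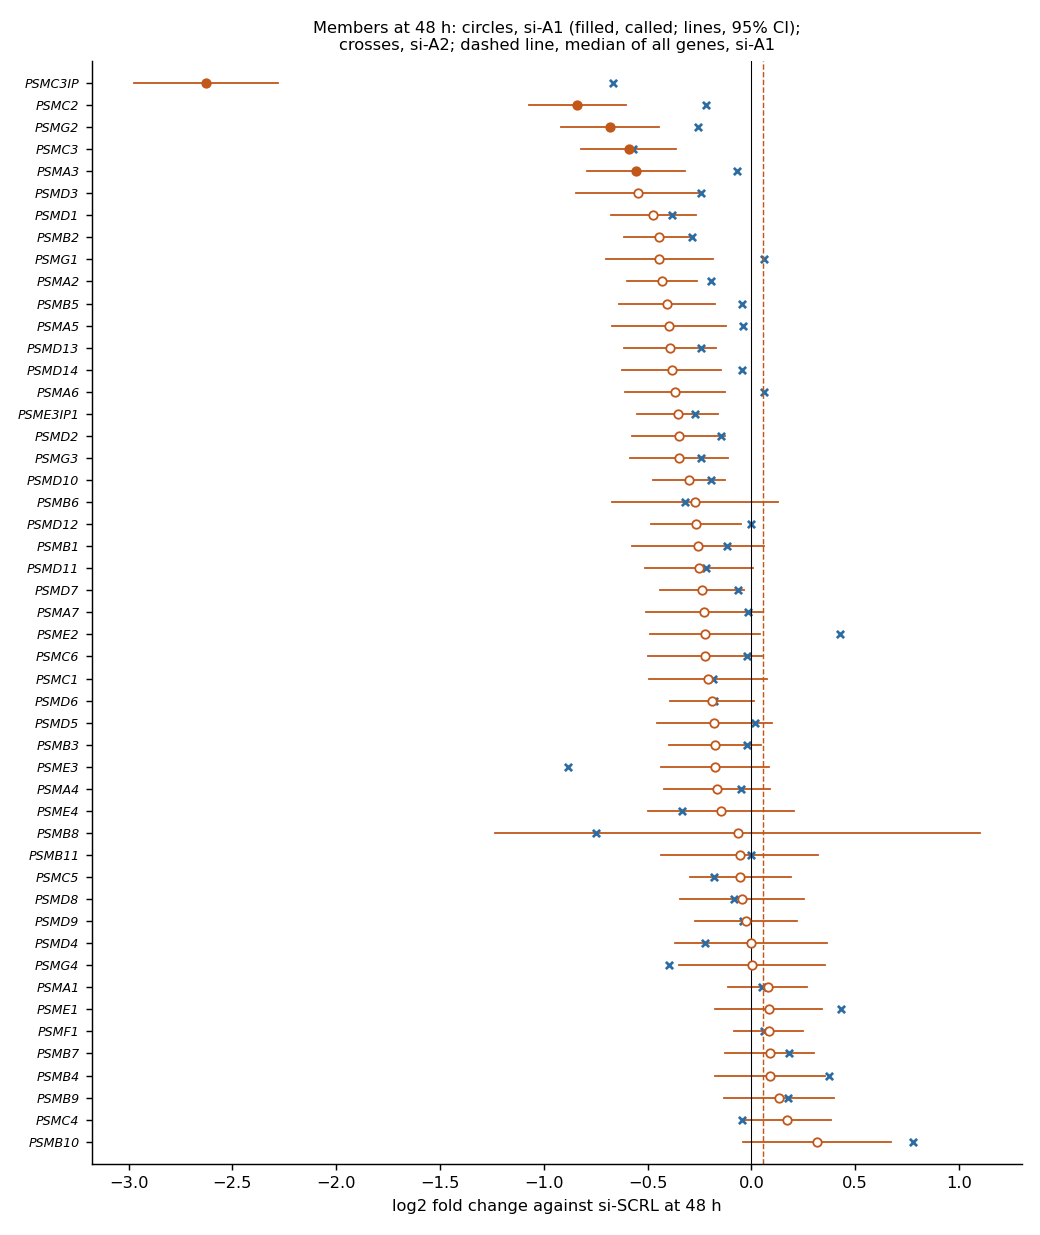
Log2 fold change against si-SCRL at 48 h for the 49 genes, ordered by the si-A1 value; circles with 95% intervals are si-A1 (filled where called), crosses are si-A2, and the dashed line is the si-A1 median of all genes. With si-A1, 40 of the 49 lie below 0 and the 5 called genes lie at -0.56 or lower.

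By class, the 20S core and the 19S cap had like values with si-A1 at 48 h. The median log2 fold change was -0.26 over the 14 core subunits and -0.25 over the 17 cap subunits. Within the core it was -0.37 for the alpha ring and -0.26 for the beta ring, and within the cap -0.22 for the ATPases and -0.27 for the non-ATPases. Of the core, 11 were below 0 and 6 did not overlap with si-SCRL, all lower, and of the cap 16 were below 0 and 6 did not overlap, beside 8.18% of all genes not overlapping and lower. The assembly chaperones had a median of -0.30, with 6 of 7 below 0, and the activators one of -0.16.

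The class levels were also taken on each array. The median over the core subunits, taken on each array relative to the si-SCRL mean of each gene, ranged from -0.46 to -0.07 on the si-A1 arrays at 48 h and from -0.03 to 0.07 on the si-SCRL arrays. For the cap the range was -0.37 to -0.11 with si-A1 and -0.10 to 0.09 with si-SCRL. The si-A1 and si-SCRL ranges did not overlap for either class, and the least negative si-A1 arrays lay close to si-SCRL. At 24 h the core ranged from -0.17 to 0.07 with si-A1 and from -0.10 to 0.39 with si-SCRL, and the groups overlapped.

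**Figure D3:**
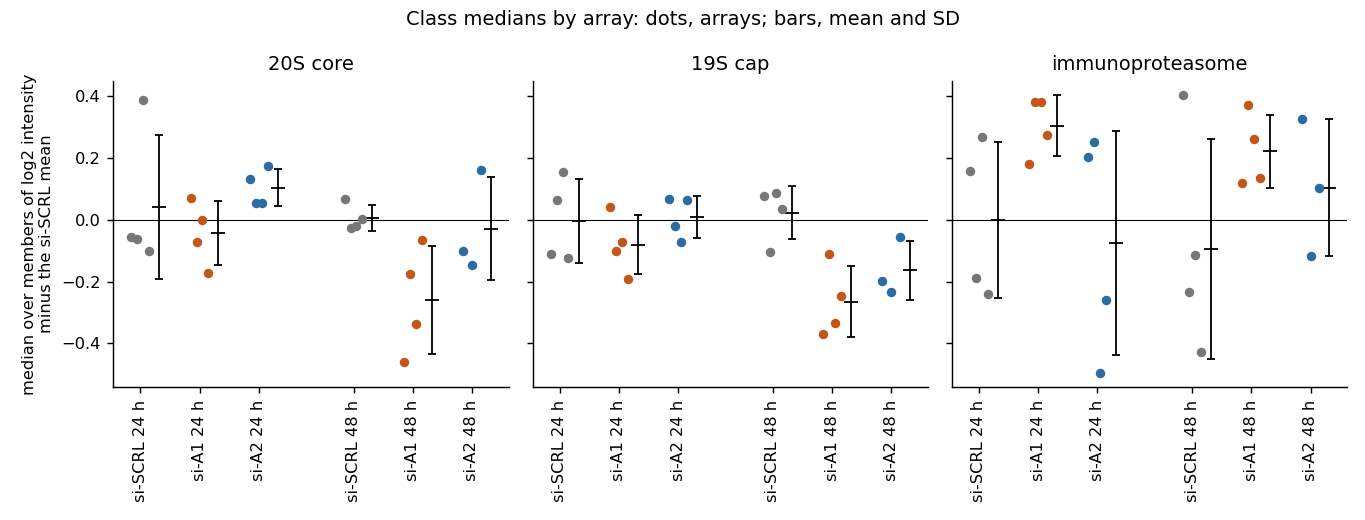
Median over the members of a class of the log2 intensity minus the si-SCRL mean of the same time, for each array; dots are arrays and bars are the mean with its SD. The si-A1 arrays at 48 h lie below the si-SCRL arrays for the 20S core and the 19S cap, at means of -0.26 and -0.27, and the immunoproteasome values of the groups overlap.

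With si-A2 at 48 h, 0 of the 49 genes were called in the limma fit, beside 0.443% of all 37701 genes. At an unadjusted p under 0.05 there were 14, of which 10 were lower, with no share of all genes beside them. At an adjusted p under 0.05 there were 2, PSME3 and PSMC3, both lower, beside 2.01% of all genes lower at that threshold. The si-A2 arrays lay below every si-SCRL array for 11 of the 49 genes (22.4%), beside 6.81% of all genes. The median SE here was 0.1188 for a proteasome gene and 0.1728 over all genes, so these shares too come from unlike precision. The median was -0.18 over the cap, with 16 of 17 below 0, and -0.04 over the core, with 10 of 14 below 0. Among all members 37 were below 0 (75.5%, against 48.3% of all genes). Direct comparison of si-A2 with si-A1 at 48 h gave 1 call, PSMC3IP, beside 1.34% of all genes (0.918% called higher), and 5 genes at an adjusted p under 0.05, beside 4.64% of all genes. These were PSMC3IP, PSMC2, PSME2 and PSMA3, higher with si-A2, and PSME3, lower with si-A2. The median of si-A2 over si-A1 was 0.19 for the core, with 12 of 14 above 0, and 0.09 for the cap, with 13 of 17 above 0, against -0.04 over all genes. Of the 49 genes, 12 (24.5%) were below 0 in this comparison, against 55.9% of all genes, and 17 were higher on every si-A2 array than on any si-A1 array, beside 7.23% of all genes.

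No proteasome gene was called for a changed effect between 24 h and 48 h in the limma fit over both times. For si-A1 this was 0 of 49, beside 0.178% of all genes, with 0 at an adjusted and 7 at an unadjusted p under 0.05. For si-A2 it was 0 of 49, beside 0.0463%, with 6 at an unadjusted p under 0.05 and 1, PSMC3IP, at an adjusted p under 0.05. The counts at an unadjusted p have no share of all genes beside them. PSMC3, PSMG2 and PSMA3 were thus called at 48 h and not at 24 h without a called difference between the times. The 2 times were run on different array versions, and version and time cannot be told apart.

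**Figure D4:**
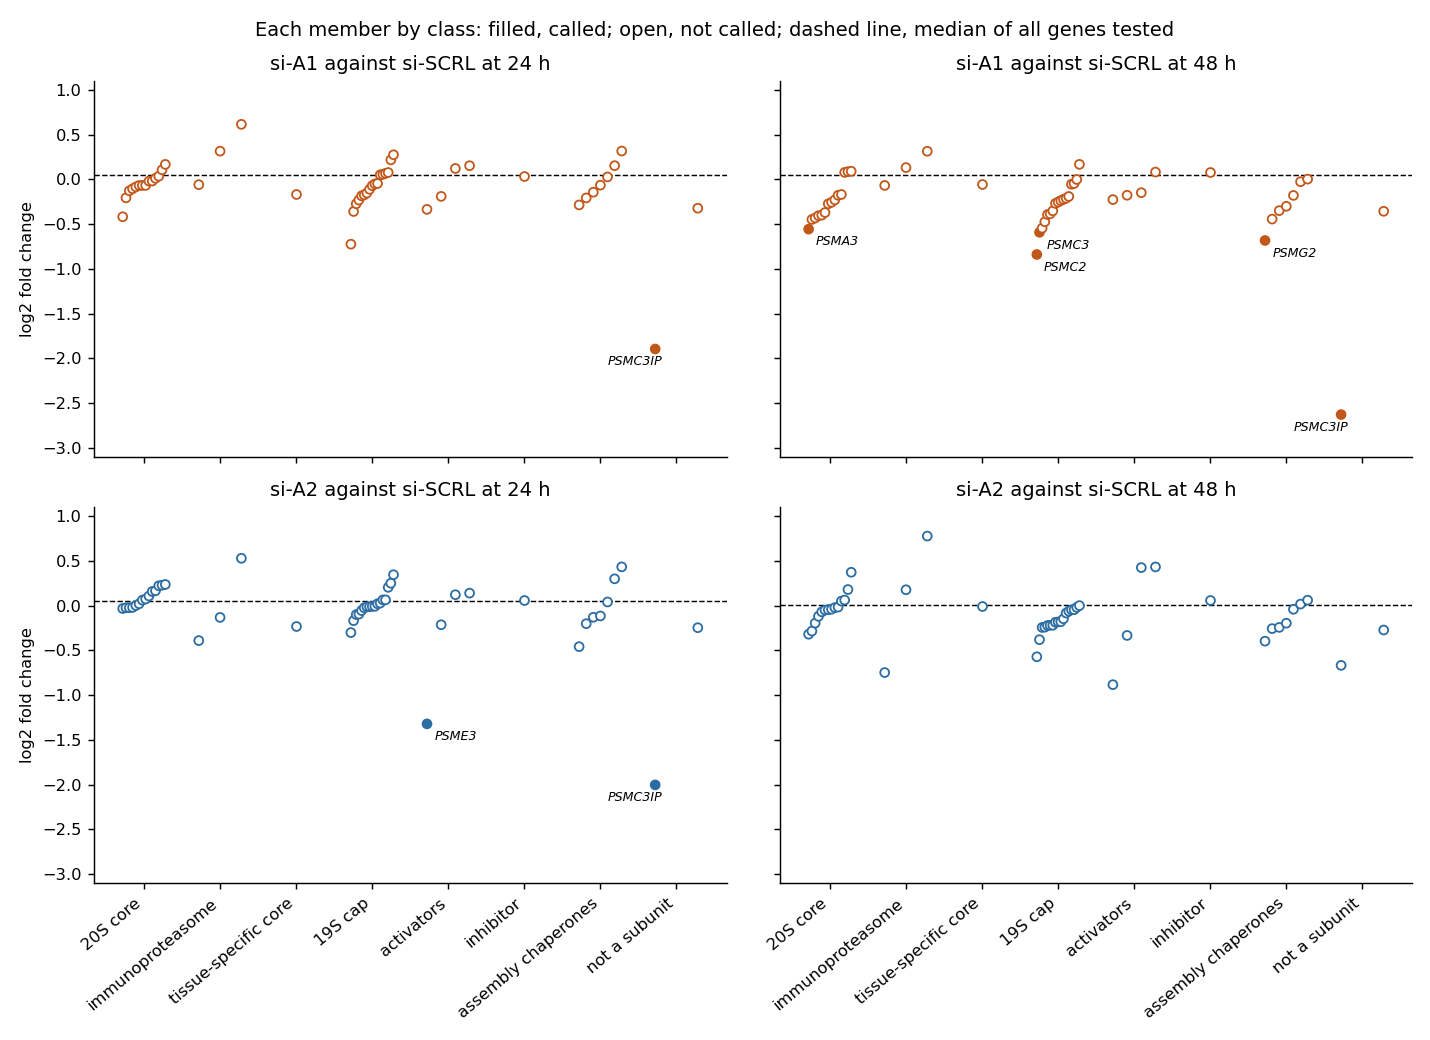
Log2 fold change of each of the 49 genes against si-SCRL by class, siRNA and time; filled circles are called, open circles are not, and the dashed line is the median of all genes tested. PSMC3IP is the lowest value in 3 of the 4 panels, PSME3 is called with si-A2 at 24 h, and 5 genes are called with si-A1 at 48 h.

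Of the immunoproteasome subunits, 0 of 3 were called in any comparison. PSMB10, which replaces PSMB7, read 7.77, 7.78, 7.67 and 7.40 at 24 h, against 7.29, 6.94, 7.40 and 6.89 with si-SCRL, and 8.22, 7.89 and 8.49 at 48 h, against 7.5, 7.17, 7.29 and 7.67. The si-A2 arrays were above every si-SCRL array at both times, by a small margin at 24 h. This held for 4 of the 49 genes at 24 h and 3 at 48 h, beside 3.09% and 3.97% of all genes. The log2 fold change was 0.53 ± 0.15 at 24 h (limma adjusted p = 0.17) and 0.78 ± 0.17 at 48 h (limma adjusted p = 0.051), neither of them called, and it was 1 of the 14 genes at an unadjusted p under 0.05 at 48 h. With si-A1 it was 0.32 at both times, with overlapping groups.

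PSMB9, which replaces PSMB6, ranged from 7.57 to 8.35 on the si-SCRL arrays at 24 h and from 8.28 to 9.12 at 48 h, and the 4 differences from si-SCRL lay between -0.13 and 0.18, with adjusted p of 0.52 or more. PSMB8, which replaces PSMB5, was well above background on 1 si-A1 array at 24 h and 1 si-SCRL array at 48 h and on no other, so its values carry little information on direction. PSMB8 and PSMB9 lie 9.51 kb apart on chromosome 6. The activators PSME1 and PSME2, 4.40 kb apart on chromosome 14, form the interferon-inducible ring PA28. With si-A2 at 48 h they had 0.43 and 0.42 (limma adjusted p = 0.12 and 0.14), and PSME2 exceeded the si-A1 level by 0.65 ± 0.13 (limma adjusted p = 0.025, not called).

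Other genes of the pathway were examined for the same comparisons. Of 12 measured proteasome-associated genes, 3 were lower and called with si-A1 at 48 h, where 3.66% of all genes were called lower and 5.82% in either direction. These were UCHL5, a deubiquitinase of the cap, at -1.49 (limma adjusted p = 4.95e-05), UBE3C, a ubiquitin ligase of the proteasome, at -0.68, and IPO9, an importin that carries proteasomes into the nucleus. The IPO9 probe was well above background on 1 of 4 si-SCRL arrays and on 0 of 4 si-A1 arrays at 48 h, so no fold change is given for it. POMP, the maturation protein of the core, had 0.14 and was not called. Of 7 regulators of proteasome gene expression DDI2, the protease that activates NFE2L1, was called at -0.81 and NFE2L1 itself had -0.02. Of 14 genes of ubiquitin and its delivery, RAD23B, a shuttle for ubiquitinated proteins, was called at -0.84. In antigen presentation, with 14 genes measured, the chaperone CANX was called lower at -1.23 and the peptide transporter TAP1 higher at 0.64, and of 10 interferon response genes ISG15 and STAT2 were called higher, at 0.69 and 0.68. In the limma fit, 0 genes of these lists were called with si-A2 against si-SCRL at either time or with si-A1 at 24 h. At an unadjusted p under 0.05 there were 2 of 60 and 10 of 57 with si-A2 at 24 h and 48 h, and 13 of 60 with si-A1 at 24 h. The share of all genes at an unadjusted p was not taken, so these counts have no background beside them. Between si-A2 and si-A1 at 48 h, UCHL5, CANX and DDI2 were called higher with si-A2, at 1.33, 1.31 and 0.67, beside 1.34% of all genes called in that comparison.

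Genes with several probes limit single values. PSME4, the activator PA200, had -0.33 for si-A2 at 48 h, and its other probe was well above background on 1 of 4 si-SCRL and 1 of 3 si-A2 arrays. The 4 probes of PSMF1 ranged from -0.33 to 0.19 for si-A1 at 48 h, and PSME3IP1, at -0.36 (limma adjusted p = 0.026), had -0.80 on its other probe, which was well above background on 2 of 4 si-A1 arrays. PSMC3IP, PSME3, PSMC3, PSMG2 and PSMA3 have 1 probe each, as do 34 of the 50 genes.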

How the data were processed

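Total RNA of LNCaP cells was labelled with Cy3 and hybridised to one-colour Agilent arrays, of 1 version at 24 h and another at 48 h. The authors deposited scanner files with the processed intensity of each spot (Agilent Feature Extraction 11.5.1.1) and a table of normalized log2 values, for which the submitters' processing notes name R 3.4.3, limma 3.34.8 and hg38. The log2 table served as an alternative. Here processed intensities were put on the log2 scale and quantile-normalized within a time point, outlier spots were removed, spots of a probe were averaged, and probes had to exceed the mean of the negative controls by 3 SD on at least 3 arrays. The brightest probe stood for a gene. limma 3.58.1 (R 4.3.3) fitted the comparisons over all genes of a time point with the slide as a covariate, and genes were called at an adjusted p (Benjamini-Hochberg) under 0.01 and a log2 fold change of at least 0.5. The filter on the interquartile range, part of the study's methods, was an alternative. Median array intensity was 24.4 to 57.2 at 24 h and 20.4 to 32.3 at 48 h, and the number of arrays limits the precision.

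Genes were named through RefSeq accessions, which covered 57.4% and 53.4% of the probes of the 2 versions. Named genes were those called, the largest difference of each class and comparison, the catalytic subunits and their immunoproteasome counterparts, PSME1 to PSME3, POMP, and up to 4 called genes of each other list. The members and all lists were chosen with earlier results of these data known. Replicate numbers came from the labels. Same-numbered arrays deviated together at 48 h (r from 0.189 to 0.372), which was taken as pairing, although other numbers of the same slide had r from 0.105 to 0.306, and not at 24 h (r from -0.152 to 0.151). The other alternatives were another scaling, background correction (normexp with offset 50, on the median signal), filters, probe rule, thresholds, slide terms, single slides, the dim array kept, and each array left out. The fit was tested on simulated data. Promoter sequences are those of RefSeq on GRCh38.p14.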

Additional observations from a re-analysis of the deposited data

Results flagged for a closer look

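Among 205 groups of 4 arrays of the 41 named genes, 12 held 1 array apart from the other 3 (5.85%), and chance gives about 5% of such groups. At 24 h these were PSMB8 in si-A1 replicate 1 (log2 intensity 3.35, against 3.90 to 3.96), PSMC2 in si-SCRL replicate 3 (10.39, against 9.69 to 9.80), PSMC6 in si-A1 replicate 2 (8.32, against 8.21 to 8.22), PSMD7 in si-A2 replicate 1 (8.25, against 8.67 to 8.70) and PSMD8 in si-SCRL replicate 2 (13.28, against 12.74 to 12.79). At 48 h the si-SCRL arrays apart were replicate 4 for PSMB3 (11.23, against 11.16 to 11.17), replicate 1 for PSMC3 (9.78, against 9.64 to 9.66), replicate 2 for PSMD3 (8.05, against 8.59 to 8.63) and replicate 3 for PSMG1 (5.15, against 5.64 to 5.72). The si-A1 arrays apart at 48 h were replicate 2 for PSMB7 (9.93, against 9.69 to 9.73) and for PSME3 (8.30, against 8.04 to 8.08), and replicate 1 for PSMD5 (5.57, against 5.30 to 5.33).

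The effect of si-A2 on PSMC3IP differed between 24 h and 48 h by 1.35 ± 0.25 on the log2 scale, with an adjusted p of 0.048 in limma's interaction fit.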

How the results depend on the processing

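When single arrays were left out, the number of proteasome genes called stayed at 1 for si-A1 at 24 h (1 to 1) and at 2 for si-A2 at 24 h (2 to 2), ranged from 2 to 4 for si-A1 at 48 h, and was 0 to 0 for si-A2 at 48 h. It was 0 to 1 for si-A2 against si-A1 at 24 h (0 without si-A1 replicate 2 or 3, or si-A2 replicate 1, 2 or 3) and 0 to 1 at 48 h (0 without si-A2 replicate 1). Within slide 1 or slide 2 alone, 0 proteasome genes and 0% of all genes were called in each of these comparisons, where few residual degrees of freedom remain.

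In this paragraph a percentage in brackets is the share of all genes called in the same setting. For si-A1 at 48 h the count of 5 (5.82%) became 17 (15.1%) at an adjusted p under 0.05 with no minimum fold change. It was 3 without the slide term (3%), 3 with normexp (4.55%) and 2 with the interquartile range filter (8.81%). It was 2 with only the groups compared (4.9%), 1 at a log2 fold change of at least 1 (2.28%), and 0 with the dim array kept (0.0585%). For si-A2 at 48 h the count of 0 (0.443%) became 2 at an adjusted p under 0.05 (2.67%) and 3 with normexp (1.35%). It became 1 with the slide as a random block (0.591%) and 1 with genes well above background (1.84%). For si-A2 against si-A1, the 1 call at 24 h (0.308%) became 0 with the interquartile range filter (0.112%) and with only the groups compared (0.0628%). The 1 call at 48 h (1.34%) became 5 at an adjusted p under 0.05 (4.64%) and 4 with normexp (1.67%). It became 3 with genes well above background (3.16%), and 0 with only the groups compared (0%) or the dim array kept (0%). The si-A2 count of changed effects between the times went from 0 (0.0463%) to 1 (0.102%) at an adjusted p under 0.05. DDI2 in si-A2 against si-A1 at 48 h turned to -0.80 with the dim array kept. PSMC3IP with si-A1 at 48 h was -1.26 with normexp. The causes were not tested.

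With the replicate number as a block, the si-A1 count at 48 h was 2 (3.77% of all genes), with PSMC3IP and PSMC2 called. That of si-A2 against si-A1 at 24 h, where the numbers do not pair the arrays, was 0 (0.0819% of all genes). The block changed no other count of proteasome genes called.

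The interquartile range filter left 1 or 2 genes of the cap or the immunoproteasome. The cap median was then -0.72 (24 h) and -0.71 (48 h) for si-A1, -0.40 for si-A2 at 48 h, and 0.63 (24 h) and 0.32 (48 h) for si-A2 against si-A1. The immunoproteasome median was -0.75 for si-A2 at 48 h, and -0.54 (24 h) and -0.68 (48 h) for si-A2 against si-A1. With genes well above background it was 0.20 (24 h) and 0.48 (48 h) for si-A2 and 0.25 for si-A2 against si-A1 at 48 h. Within slide 1 it was 0.54 for si-A2 at 24 h, and 0.27 (24 h) and 0.51 (48 h) for si-A2 against si-A1. Within slide 2 alone, si-A2 against si-A1 at 24 h had -0.41 for the immunoproteasome and 0.21 for the core. The core median for si-A1 at 48 h lay between -0.35 and -0.20 throughout. Scaling on the 75th percentile put the median of all genes at 0.128 (24 h) and 0.116 (48 h) for si-A1, with the proteasome genes at 0.01 and -0.21.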

Other observations

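PSMD5, an assembly chaperone of the 19S base, had probes at -0.33 and 0.32 for si-A1 at 24 h.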
